A study of Homo sapiens with 6 samples.

Results

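The genes described here are 10 members of the Wnt pathway in A375 cells, an established human melanoma line: the ligand WNT5A, the receptors ROR1 and ROR2, the transducer CTNNB1, the DNA-binding factors TCF7, LEF1, TCF7L1 and TCF7L2, and the feedback inhibitors AXIN2 and NKD1. Open chromatin was profiled by ATAC-seq, in which the transposase Tn5 cuts accessible DNA and the fragments are sequenced. A peak belonged to a gene when its centre lay inside the gene body of GENCODE release 44, or when it lay in no protein-coding gene and the closest protein-coding start site was that of the gene. By this rule 260 of 152800 peaks were members, and 259 of the 150117 peaks with enough counts to test. The remaining member peak, at chr4:108284887-108285388 upstream of LEF1, held between 3 and 12 counts per library. The genes were chosen partly because peaks of ROR1, AXIN2 and LEF1 were higher in HMGB2OE cells. Values that compare the groups at these genes are therefore given as a description, with no test.

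The groups were 3 libraries from A375 cells with an empty vector and 3 from A375 cells that overexpress HMGB2 (HMGB2OE), a chromatin protein that binds and bends DNA. Both lines came from lentiviral transduction and selection, and the methods do not state that either was grown from 1 clone. The study describes the libraries as technical replicates of an experiment done once, so the spread given here lies between libraries and not between independent cultures. Libraries held 26910189 to 45645294 counts in peaks. At a peak over coding exons of HMGB2 (chr4:173332680-173333181), the normalized count (the count scaled to a common library size) was 32.0 ± 15.7 in empty vector and 98.4 ± 5.31 in HMGB2OE cells (SD, n = 3 each, as throughout), whereas the HMGB2 promoter held 1986 ± 223 and 1973 ± 59.0. Fragments of the construct and of the resident gene cannot be told apart there. Of the melanocyte and melanoma markers examined, MITF, SOX10, PMEL, SOX9, AXL, NGFR and EGFR had a promoter peak and MLANA, TYR and DCT had none. Among markers of other cell types PTPRC had none, but KRT8, COL1A1, CD3E, EPCAM and PECAM1 did, with 27.7 ± 6.95 at PECAM1 and 1277 ± 115 at KRT8 in empty vector cells. The study called peaks with a public melanocyte dataset as the control, so a missing peak at a melanocyte marker need not mean a closed promoter. An open promoter is not a measure of expression.

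Wnt ligands act through Frizzled receptors and their partners. In the canonical branch the signal spares beta-catenin, the product of CTNNB1, from destruction, and beta-catenin joins TCF/LEF proteins on DNA to switch on target genes, among them AXIN2, NKD1 and LEF1. WNT5A instead acts mainly through ROR1 and ROR2 without beta-catenin, and in melanoma this branch is known for its link to invasive cells.

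Of the 15 member peaks that passed the limits (edgeR adjusted p under 0.05 with a change of 1.5-fold or more), 8 stretches are shown because they hold a word recognised by TCF/LEF factors or by AP-1, a pair of factor classes that read short DNA words at distal elements. The words were searched on both strands of the hg38 genome, as ATCAAAG for TCF/LEF, TGACTCA for AP-1 and ACAAAGG for SOX factors. The TCF/LEF and SOX words share the run CAAAG but cannot occupy the same letters. Each stretch is written 5′ to 3′ on the plus strand with 75 bases on either side of the word, and capitals mark the word. The TCF/LEF word occurred in 1 intronic ROR1 peak, 1 peak downstream of TCF7L2 and the intronic NKD1 peak, each time on the minus strand.
NKD1, chr16:50603653-50603809: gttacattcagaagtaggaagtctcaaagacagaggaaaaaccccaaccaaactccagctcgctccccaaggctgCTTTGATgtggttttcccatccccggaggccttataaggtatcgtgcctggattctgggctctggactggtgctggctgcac
ROR1, chr1:64163932-64164088: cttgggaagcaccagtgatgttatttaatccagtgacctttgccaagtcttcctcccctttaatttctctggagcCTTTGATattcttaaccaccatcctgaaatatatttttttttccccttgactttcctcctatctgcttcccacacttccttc
TCF7L2, chr10:113245941-113246097: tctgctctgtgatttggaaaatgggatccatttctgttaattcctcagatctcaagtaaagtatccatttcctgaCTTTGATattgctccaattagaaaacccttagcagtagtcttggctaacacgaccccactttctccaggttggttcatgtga

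The AP-1 word occurred in 5 of the 15 peaks, near AXIN2, LEF1, ROR1 and TCF7L2. Its letters read TGACTCA on the plus strand in both AXIN2 stretches, and TGAGTCA where the word lies on the minus strand.
AXIN2, chr17:65390134-65390290: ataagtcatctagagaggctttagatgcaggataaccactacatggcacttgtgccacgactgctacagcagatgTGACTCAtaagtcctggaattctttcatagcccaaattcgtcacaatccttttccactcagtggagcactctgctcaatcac
AXIN2, chr17:65438835-65438991: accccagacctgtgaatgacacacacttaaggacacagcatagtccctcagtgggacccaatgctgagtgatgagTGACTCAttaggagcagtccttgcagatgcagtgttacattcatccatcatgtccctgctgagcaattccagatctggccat
LEF1, chr4:108385206-108385362: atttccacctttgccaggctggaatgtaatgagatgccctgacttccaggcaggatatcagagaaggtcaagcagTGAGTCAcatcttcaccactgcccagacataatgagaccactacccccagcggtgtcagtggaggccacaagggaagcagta
ROR1, chr1:63821816-63821972: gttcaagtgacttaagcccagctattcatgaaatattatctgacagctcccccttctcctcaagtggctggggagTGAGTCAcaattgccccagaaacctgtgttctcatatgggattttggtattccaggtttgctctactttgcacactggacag
TCF7L2, chr10:113319630-113319786: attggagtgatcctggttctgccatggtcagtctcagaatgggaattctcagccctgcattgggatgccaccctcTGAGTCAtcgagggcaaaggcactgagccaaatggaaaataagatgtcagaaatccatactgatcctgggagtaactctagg

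The TCF/LEF word was found in 20 of 259 member peaks (7.72%) and in 6.85% of all tested peaks, the AP-1 word in 81 (31.3%) against 28.0%, and the SOX word in 35 (13.5%) against 12.1%. Member peaks thus held each word at a share within a few percentage points of that in all peaks. None of the 15 peaks held the SOX word, and 7 held none of the 3 words. A match describes the letters only.

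Of the 259 tested member peaks, 13 were called higher and 2 lower in HMGB2OE cells. The share called was 1.87% (higher) and 1.44% (lower) over the 150117 peaks, or 3.31% in either direction. Without the fold limit 21 member peaks were higher and 3 lower, beside 3.44% and 3.03% of the 150117. All 3 HMGB2OE libraries lay above all 3 empty vector libraries in 51 member peaks and below them in 13, where these shares were 12.6% and 12.5% of all tested peaks. The log2 fold change was above 0 in 159 member peaks (61.4%), with a median of 0.09 and a 5th to 95th percentile range of -0.33 to 0.64. For all tested peaks 49.2% were above 0, the median was -0.0049 and the range -0.50 to 0.54. Since the genes were picked in part for their higher peaks, nothing is read from these differences. In bulk cells, a site open in more cells and a site cut more often in each cell cannot be told apart. With 1 library left out at a time, between 7 and 14 member peaks were called higher and between 0 and 2 lower. The count called higher was 7 without empty vector library 2, 8 without HMGB2OE library 2 or 3, and 14 without empty vector library 3. These were not always the same peaks. Of the 15 peaks called with every library, between 7 and 12 were called again, and 9 without empty vector library 3. The count called lower was 0 without empty vector library 3, HMGB2OE library 1 or HMGB2OE library 3, and 1 without empty vector library 1 or 2.

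**Figure D1:**
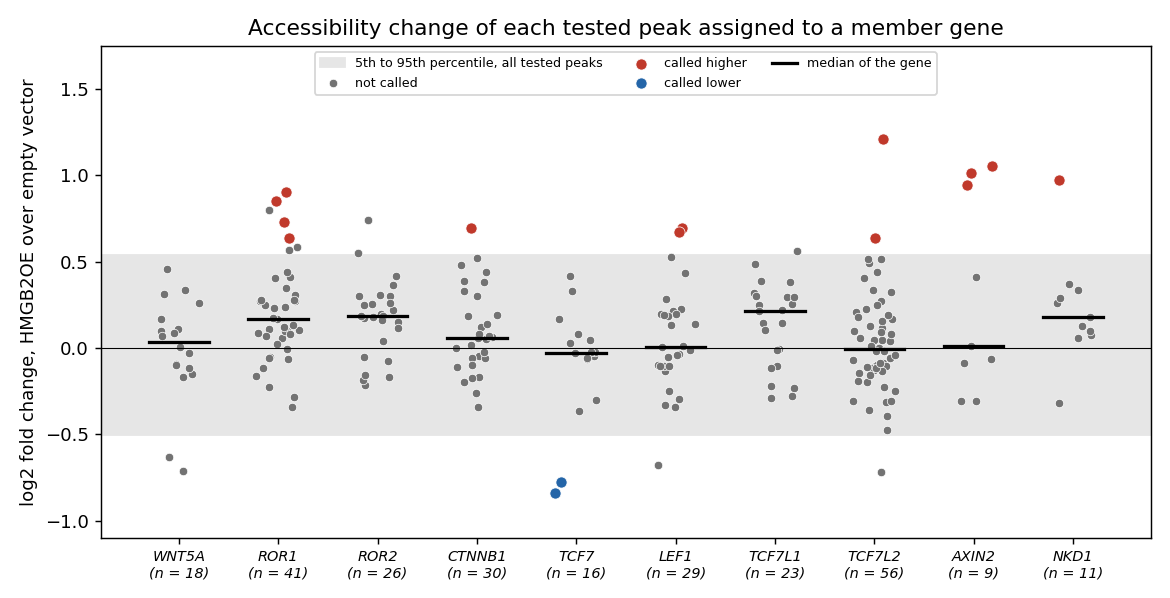
Log2 fold change (HMGB2OE over empty vector, vertical axis) of each tested peak, grouped by gene on the horizontal axis; red points were called higher, blue points lower, bars are gene medians and the grey band spans the 5th to 95th percentile of all tested peaks. The 3 AXIN2 peaks called higher lie between 0.95 and 1.05, the TCF7L2 peak at 1.21 is the highest of the 259, and both peaks called lower belong to TCF7.

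The called peaks were not at the promoters of these genes, with 1 exception. All 13 peaks called higher lay over 3 kb from every start site of their gene: 6 in introns, 5 downstream of the gene and 2 upstream. Of 37 member peaks within 3 kb of a start site, 0 were called higher and 1 lower, with a median log2 fold change of -0.04. Among all tested promoter peaks 0.977% were called higher and 0.788% lower, with a median of -0.04. Of the 222 other member peaks, 13 were called higher and 1 lower (median 0.11), beside 2.18% and 1.68% of all tested distal peaks (median 0.01). The called peaks were also weak ones. None of the 84 member peaks with a mean normalized count of at least 200 was called, and all 15 called peaks had means between 41.8 and 129.8. Among all tested peaks with such high counts, 0.679% were called higher and 0.694% lower. At means under 100 these shares were 2.18% and 1.66%, and from 100 to 200 they were 2.89% and 2.04%. Weak peaks were thus called more often among all tested peaks as well.

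WNT5A, which encodes a ligand of the branch that does not use beta-catenin, had 18 peaks on chromosome 3, and none was called. Its strongest promoter peak (chr3:55484936-55485437) held 560.1, 564 and 571 normalized counts in empty vector libraries and 534, 563 and 605 in HMGB2OE libraries. The groups overlapped, with a log2 fold change of 0.00 ± 0.09 (SE). The log2 fold changes of its peaks ran from -0.72 to 0.46, with 10 of 18 above 0. The lowest, at chr3:55362178-55362679 downstream of the gene, had 50.3 ± 8.58 counts in empty vector and 30.8 ± 11.4 in HMGB2OE cells, and the groups overlapped.

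ROR1 encodes a receptor tyrosine kinase-like protein that binds WNT5A, and 4 of its 41 peaks were called, against 3 of 9 for AXIN2. The gene spans 407 kb on chromosome 1 (63774017 to 64181498, plus strand) and all 4 were called higher and lay in introns, among 36 peaks within the gene body. The first, 47.8 kb from the closest start site (chr1:63821608-63822109), held 59.8, 55.9 and 56.2 normalized counts in empty vector libraries and 82.5, 86.7 and 99.1 in HMGB2OE libraries, a log2 fold change of 0.64 ± 0.20. At the second, 141.3 kb away (chr1:63915103-63915604), empty vector libraries held 44.5, 43.0 and 48.0 and HMGB2OE libraries 84.2, 84.2 and 75.4, a change of 0.85 ± 0.21. The groups stood apart, with the lowest HMGB2OE value above the highest empty vector value at both peaks.

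The third ROR1 peak, at 230.7 kb (chr1:64004451-64004952), held 80.6, 88.6 and 51.5 in empty vector and 119.9, 115 and 136 in HMGB2OE libraries (0.73 ± 0.19). Empty vector library 3 was the low one, and without it the change was 0.53 and the call was lost. The call was also lost without HMGB2OE library 3, at 0.66. The last of the 4, at 390.1 kb near the 3′ end of the gene (chr1:64163900-64164401), is the one with the TCF/LEF word. It held 33.4, 25.0 and 30.4 against 57.0, 59.2 and 47.3 counts (0.90 ± 0.27). A neighbouring intronic peak (chr1:64171818-64172319) was not called although its groups did not overlap, with 33.2 ± 5.92 and 58.9 ± 7.79 counts (0.80 ± 0.26).

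The calls of the first, second and last ROR1 peaks depended on single libraries as well. The first was lost without any 1 of the 6 (changes of 0.57 to 0.70), in DESeq2 and with GC-content offsets. The second was lost without empty vector library 2 or HMGB2OE library 1 or 2 (0.81 to 0.83). The last was lost in DESeq2 and without any library other than empty vector library 1 (0.78 to 0.99). The ROR1 promoter (chr1:63773796-63774297) did not move with these introns. It held 956, 973 and 979 counts in empty vector and 925, 974 and 909.6 in HMGB2OE libraries (-0.05 ± 0.08), and the groups overlapped. Summed over all its peaks, ROR1 held 9431, 10260.1 and 10310.4 counts in empty vector and 10609, 10696 and 10798 in HMGB2OE libraries, a log2 ratio of 0.10 with no overlap. The 105 other peaks within 1 Mb of ROR1 had a median log2 fold change of 0.01.

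ROR2 encodes the related receptor of WNT5A. None of its 26 peaks on chromosome 9 was called, although 20 had a log2 fold change above 0, with a median of 0.19. An intronic peak (chr9:91896731-91897232) held 107, 99.8 and 114 normalized counts in empty vector and 167, 134 and 168 in HMGB2OE libraries. These groups did not overlap, and the fold change (0.55 ± 0.15 on the log2 scale) was under the limit. The largest change at ROR2 was 0.74 ± 0.24, at an intronic peak near the 3′ end (chr9:91586304-91586805, 40.6 ± 5.69 and 67.5 ± 14.3). Summed over its peaks ROR2 held 3892 ± 320 counts in empty vector and 4395 ± 185 in HMGB2OE cells (0.18), and the groups did not overlap. The 144 other peaks within 1 Mb had a median of -0.03.

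CTNNB1 encodes beta-catenin. Of its 30 peaks on chromosome 3, 21 were intergenic, and 1 of these was called higher. It lay between ZNF621 and CTNNB1, 205.3 kb upstream (chr3:40989215-40989716), with 63.9, 61.9 and 87.8 normalized counts in empty vector and 109, 120.1 and 116 in HMGB2OE libraries (0.70 ± 0.18). Empty vector library 3 was nearest to the HMGB2OE values, and the call was lost without empty vector library 1 (0.64), empty vector library 2 (0.59) or HMGB2OE library 2 (0.66). The strongest promoter peak of CTNNB1 (chr3:41199103-41199604) held 1005, 1069 and 993 counts in empty vector and 893, 949 and 887 in HMGB2OE libraries. All HMGB2OE values were lower there (-0.17 ± 0.08), but the change met neither the adjusted p limit nor the fold limit.

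Of the factors that beta-catenin joins, TCF7 was the only one of the 10 genes with peaks called lower. Both lay in the 3′ part of the gene, on chromosome 5. The first, 0.2 kb from an internal start site and over 206 coding bases (chr5:134142786-134143287), held 87.6, 84.3 and 124 normalized counts in empty vector and 56.1, 67.6 and 47.3 in HMGB2OE libraries, a log2 fold change of -0.77 ± 0.21. The second, 5.6 kb from a start site and partly over exonic, noncoding sequence (chr5:134148160-134148661), held 59.8, 56.8 and 69.0 against 38.3, 34.2 and 30.4 (-0.84 ± 0.25). Every HMGB2OE value was below every empty vector value at both. The call of the first was lost without empty vector library 3 (-0.58), HMGB2OE library 1 (-0.76) or HMGB2OE library 3 (-0.67), and that of the second without any 1 of the 6 libraries (-0.93 to -0.75) and in DESeq2. The TCF7 promoter peak (chr5:134125086-134125587) held 1144 ± 133 and 1214 ± 28.5 counts (0.08 ± 0.08), and its groups overlapped.

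LEF1, a factor that is also a target gene of the pathway, had 2 peaks called higher among 29 tested on chromosome 4. The intronic one, 30.7 kb from the start site (chr4:108135397-108135898), held 97.3, 91.2 and 109 normalized counts in empty vector and 138, 156 and 188 in HMGB2OE libraries (0.69 ± 0.16). Its call was lost in 1 of 14 alternatives, without HMGB2OE library 3 (0.57). The other lay 216.3 kb upstream (chr4:108384992-108385493) and carries the AP-1 word printed above. It held 82.0, 66.3 and 88.9 against 113, 129 and 133 counts (0.67 ± 0.17), and its call was lost without empty vector library 2 (0.54), HMGB2OE library 2 (0.64) or HMGB2OE library 3 (0.63). Over all LEF1 peaks the median log2 fold change was 0.00 and 15 of 29 were above 0. The LEF1 promoter (chr4:108166618-108167119) held 365 ± 9.96 and 357 ± 22.3 counts (-0.04 ± 0.10), with overlapping groups.

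**Figure D2:**
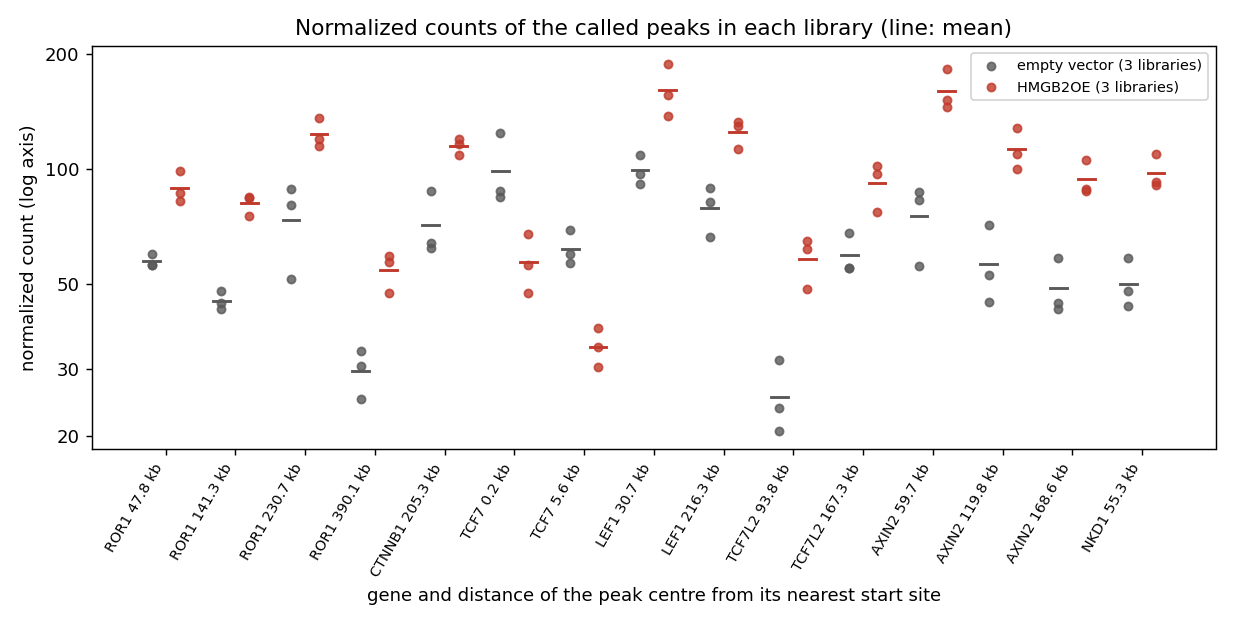
Normalized counts (log axis) of the 15 called member peaks in each of the 3 empty vector (grey) and 3 HMGB2OE (red) libraries, labelled on the horizontal axis by gene and distance from the nearest start site; lines are means. In 13 peaks all red points lie above all grey points, and in both TCF7 peaks they lie below.

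TCF7L1, a factor best known as a repressor of Wnt targets, had no called peak among 23 on chromosome 2, with a median log2 fold change of 0.22. Its strongest promoter peak (chr2:85132986-85133487) held 610.1, 731 and 736 normalized counts in empty vector and 787, 894 and 802 in HMGB2OE libraries (0.25 ± 0.09). The groups did not overlap, but the change met neither the adjusted p limit nor the fold limit. Summed over its peaks, TCF7L1 held 3938 ± 104 counts in empty vector and 4401 ± 32.5 in HMGB2OE cells, also without overlap.

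TCF7L2, a widely expressed partner of beta-catenin, had the most peaks, 56 on chromosome 10, and the strongest single one, an intronic peak with 2559 ± 240 normalized counts in empty vector and 2776 ± 207 in HMGB2OE cells (chr10:112991960-112992461). Both of its peaks called higher lay beyond the 3′ end of the gene, before HABP2. The one 93.8 kb from the closest start site (chr10:113245928-113246429), with the TCF/LEF word, held 23.6, 20.6 and 31.6 counts in empty vector and 64.6, 48.4 and 61.9 in HMGB2OE libraries, a log2 fold change of 1.21 ± 0.28. Its call was lost without empty vector library 2 (1.06) or HMGB2OE library 1 (1.12). The other, at 167.3 kb (chr10:113319496-113319997), held 68.1, 55.1 and 55.0 against 77.4, 102 and 96.8 (0.64 ± 0.20). It was the called peak closest to the fold limit and was lost in 9 of 14 alternatives, DESeq2 among them and each left-out library other than empty vector library 1 (0.55 to 0.75). Among member peaks that met the adjusted p but not the fold limit, the closest was an intronic ROR1 peak (chr1:63984142-63984643) at 0.57 ± 0.18, with overlapping groups. The TCF7L2 promoter (chr10:112949831-112950332) held 1426, 1429 and 1467 counts in empty vector and 1304, 1347 and 1337 in HMGB2OE libraries (-0.12 ± 0.07). Every HMGB2OE value was lower, but the change met neither the adjusted p limit nor the fold limit.

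AXIN2 encodes a scaffold of the complex that destroys beta-catenin, and its transcription is a common readout of canonical Wnt signalling. It had 9 peaks on chromosome 17, and 3 of them were called higher. All 3 were intergenic, between RGS9 and AXIN2 and downstream of the gene, which lies on the minus strand, and only distance ties them to it. At 59.7 kb from the closest start site (chr17:65498731-65499232), empty vector libraries held 55.6, 86.9 and 83.1 normalized counts and HMGB2OE libraries 151, 145 and 182 (1.05 ± 0.17). At 119.8 kb (chr17:65438690-65439191) they held 52.8, 44.7 and 71.4 against 128, 100.1 and 109 (1.01 ± 0.20). At 168.6 kb (chr17:65389854-65390355) they held 44.5, 43.0 and 58.5 against 88.4, 87.6 and 106 (0.95 ± 0.21). The lowest HMGB2OE library was above the highest empty vector library at each of the 3, and each was called in all 14 alternatives. Higher AXIN2 peaks were part of the reason for choosing the genes, and the alternatives refit the same libraries. Nothing is therefore read from these repeated calls.

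The other 3 intergenic peaks of AXIN2 did not follow them. The closest to the gene (chr17:65514082-65514583) had a log2 fold change of -0.08, the strongest (chr17:65358942-65359443) held 667 ± 93.3 and 675 ± 43.3 counts (0.01), and the third (chr17:65362745-65363246) had -0.31. At the AXIN2 promoter (chr17:65560812-65561313), which also lies within an overlapping gene, libraries held 174, 179.8 and 243 counts in empty vector and 246, 297 and 250 in HMGB2OE cells (0.41 ± 0.13). These did not overlap, although the highest empty vector and the lowest HMGB2OE library differed by little, and the peak was not called. The 134 other peaks within 1 Mb had a median of -0.04, with 4 called higher and 1 lower.

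NKD1 encodes an inhibitor that binds Dishevelled and is itself induced by Wnt signals. An intronic peak 55.3 kb from the closest start site (chr16:50603430-50603931), with the TCF/LEF word, was called higher among its 11 peaks. It held 58.4, 43.9 and 48.0 normalized counts in empty vector and 92.7, 90.9 and 109 in HMGB2OE libraries (0.97 ± 0.20). The call held in all 14 alternatives, which refit the same libraries. Of the 11 peaks, 10 had a log2 fold change above 0 (median 0.18). Summed over them NKD1 held 1303 ± 78.9 and 1528 ± 11.8 counts (0.23), without overlap. The promoter peak (chr16:50548330-50548831) held 319 ± 30.1 and 338 ± 46.3 counts (0.10 ± 0.12), with overlapping groups.

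**Figure D3:**
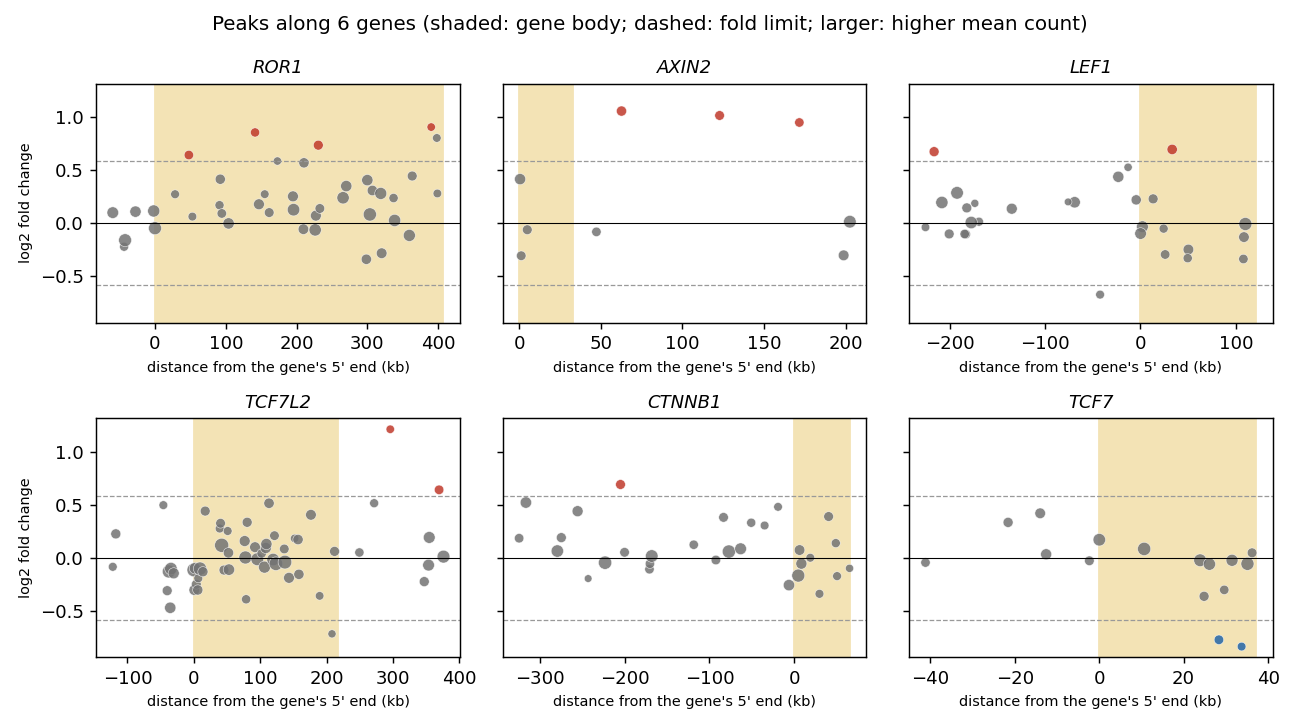
Log2 fold change (vertical axis) of tested peaks against distance from the gene's 5′ end in kb (horizontal axis, in the direction of transcription) for the 6 genes ROR1, AXIN2, LEF1, TCF7L2, CTNNB1 and TCF7; red and blue points were called higher and lower, shading is the gene body and dashed lines are the fold limit. The 4 ROR1 peaks called higher are spread over the gene from 47.8 to 390.1 kb from the closest start site, whereas those of AXIN2 and TCF7L2 lie past the 3′ end.

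Set side by side, the sums over a gene's peaks did not overlap between groups in 5 of the 10 genes, ROR1, ROR2, TCF7L1, AXIN2 and NKD1, all with higher HMGB2OE sums. Among the 5567 genes with at least 9 tested peaks, the 3 HMGB2OE sums were all higher in 13.4% and all lower in 16.9%. By role, the receptors had 52 of 67 peaks with a log2 fold change above 0 (median 0.18), the feedback inhibitors 15 of 20 (0.15), CTNNB1 18 of 30 (0.06) and the TCF/LEF factors 64 of 124 (0.01). Among all tested peaks 49.2% were above 0. Higher peaks of ROR1, AXIN2 and LEF1 were part of the reason for choosing the genes, so nothing is read from the order of roles. At the strongest promoter peak of each gene, the order of levels in empty vector cells ran from TCF7L2 with 1441 ± 23.1 through TCF7, CTNNB1, ROR1, TCF7L1, WNT5A, LEF1, NKD1 and AXIN2 to ROR2 with 163 ± 31.5. Neighbours in that order whose libraries overlapped were TCF7 and CTNNB1, and AXIN2 and ROR2. None of the 10 was called. The other peaks within 1 Mb of each gene had medians from -0.04 at AXIN2 to 0.10 at CTNNB1. Among 4958 genes with at least 10 tested peaks, EEPD1, CDHR3 and ARHGEF3 followed the summed counts of ROR1 most closely over the 6 libraries. Pearson's r was 0.999, 0.998 and 0.992 on log2 sums, which share the libraries and their depths. These are the highest of many correlations over few libraries, so nothing is read from them.

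**Figure D4:**
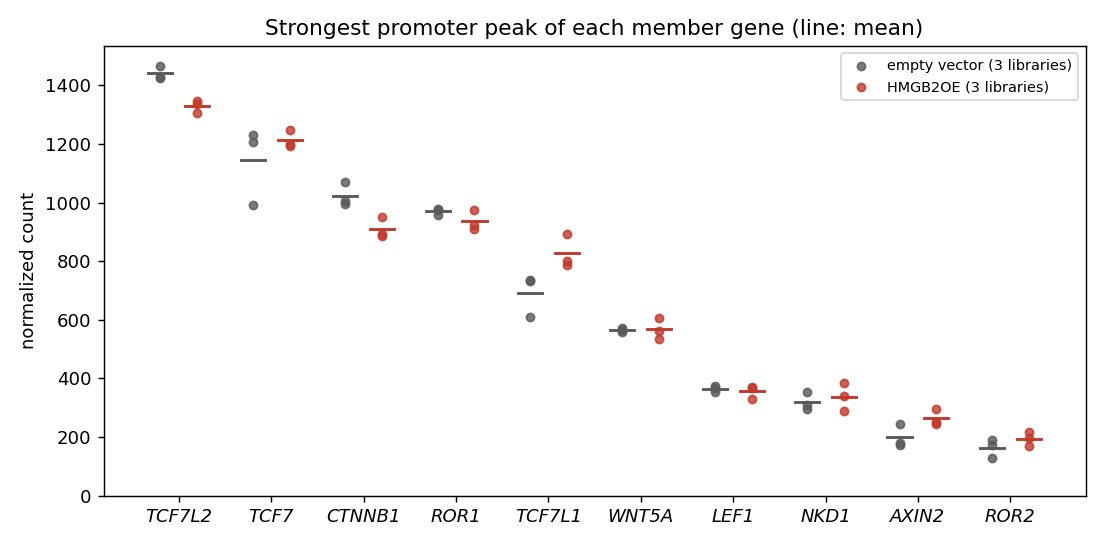
Normalized count (vertical axis, from 0) of the strongest promoter peak of each of the 10 genes in the 3 empty vector (grey) and 3 HMGB2OE (red) libraries; lines are means. Levels fall from 1441 at TCF7L2 to 163 at ROR2 in empty vector cells, and none of the 10 peaks was called.

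The rest of the pathway was followed through a list of 109 further genes, of which 108 had tested peaks. This list was also chosen with earlier results of these data known. Of their 1465 peaks, 31 were called higher in 19 genes and 24 lower in 17 genes, 2.12% and 1.64% of them. The shares over all tested peaks were 1.87% and 1.44%. Nuclear cofactors had 12 peaks called higher, 4 each near TLE1, TLE3 and TLE4, and 2 called lower of 219. The 2 lower ones were also near TLE1 (-0.84) and TLE3 (-0.93). Apart from a TLE3 peak in an intron, all of these peaks were intergenic, between 16 and 815 kb from the closest start site. Only distance ties them to TLE1, TLE3 and TLE4, which encode co-repressors that bind TCF/LEF proteins. Secreted inhibitors and R-spondins held 9 called higher in 8 genes and 2 lower. Ligands had 1 higher of 141, receptors and co-receptors 1 higher and 3 lower of 227, cytoplasmic transducers 2 and 4 of 168, and the planar polarity and calcium branch 5 and 8 of 322. Common target genes had 1 higher and 5 lower of 185. All of these, the higher one too, were tied to MYC by distance only and lay downstream of it. The 5 lower peaks were 339.2 to 690.5 kb from its closest start site, and the higher one (0.84) was 819.1 kb away.

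The 12 genes with the largest called change are given here, picked by size in the same libraries. The adjusted p-values rest on the spread between those libraries, not between independent cultures. Each of these peaks lay between 11.4 and 516.8 kb from the closest start site of its gene. PRICKLE2, a planar polarity gene, had a peak with 25.2 ± 3.64 normalized counts in empty vector and 75.7 ± 15.0 in HMGB2OE cells (log2 fold change 1.58, edgeR adjusted p = 0.000311). Peaks near TLE3 (1.38, adjusted p = 0.00107), TLE4 (1.22, adjusted p = 0.0016) and TLE1 (1.10, adjusted p = 0.0051) rose, as did those near the secreted inhibitor SFRP2 (1.32, adjusted p = 0.000834) and the ligand WNT16 (1.17, adjusted p = 0.00206). A peak near SFRP1, a relative of SFRP2, fell from 115 ± 10.2 to 45.6 ± 6.34 (-1.32, adjusted p = 0.0001). Peaks near the receptor FZD8 (-1.12, adjusted p = 0.00424), the target gene MYC (-1.07, adjusted p = 7.2e-05) and the calcium-dependent kinase CAMK2D (-1.03, adjusted p = 0.00386) also fell. Those near NKD2 (-1.09, adjusted p = 0.0123) and PRICKLE1 (-1.02, adjusted p = 0.0274) fell too, and their calls rested on single libraries. That of NKD2 was lost without empty vector library 2 (-0.65) or HMGB2OE library 1 (-1.03), and that of PRICKLE1 without empty vector library 2 or 3 or HMGB2OE library 2 or 3 (-1.01 to -0.90). Over all peaks of the other pathway genes, leaving out HMGB2OE library 1 lowered the number called higher from 31 to 15.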

How the data were processed

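ATAC-seq libraries of A375 cells, 3 with an empty vector and 3 HMGB2OE, were compared. According to the study's methods and the submitters' processing notes, the authors used Trim Galore 0.6.7 and cutadapt 4.0 for trimming. Bowtie 2 was used for alignment to hg38 and Picard for duplicates. Peaks were called with MACS2, with a public melanocyte dataset as the control. The authors then merged nearby peaks and took out blacklisted regions. They deposited 1 table of raw featureCounts counts per peak and library, with no normalization and no pooling of replicates. Treatment of multiply mapped reads and any shift of positions for Tn5 are not given in the sources used here.

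Counts were fitted with edgeR 4.0.16 in R 4.3.3 (filterByExpr, TMM, quasi-likelihood F test with no covariate, Benjamini-Hochberg over 150117 peaks). A call needed an adjusted p under 0.05 and a fold of at least 1.5. Normalized counts are counts divided by library size times TMM factor (0.975 to 1.02), scaled by the mean of those sizes. The SE of a log2 fold change was its size over √F. On simulated counts, 97% of 200 peaks changed by 1.5 on the log2 scale were recovered, with 5 false calls among 149831 peaks. That change is larger than the largest at a member peak (1.21), and the counts were drawn with the fit's own dispersions. The simulation therefore does not measure how well smaller changes at weak peaks were recovered. Library totals ran from 26910189 to 45645294 counts. Peaks were placed with GENCODE release 44, and a promoter peak has its centre within 3 kb of a start site. Members and pathway lists were chosen with earlier results of these data known. For members, every called peak, the strongest promoter peak and the peaks next to the fold limit were named, beside others picked after their values were seen. For other pathway genes, at most 12 genes with the largest called change were named, and the 3 genes most correlated with ROR1. Libraries of 1 group differed by more than sampling noise (chi-square per degree of freedom 2.50 to 4.66). Alternatives were DESeq2 1.42.0, other scaling, filters, fold limits, GC offsets, a replicate block, assignment by nearest start site and each library left out.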

Additional observations from a re-analysis of the deposited data

How the results depend on the processing

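With a lower fold limit the member peaks called higher numbered 21, and with none also 21, against 13, and the other pathway peaks called higher numbered 59 and 62 against 31, and those called lower 48 and 50 against 24. DESeq2's Wald test called 10 member peaks higher and 1 lower, and assignment of every peak to the nearest start site gave 16 and 4, against 13 and 2, and the cause was not tested. Leaving out 1 library at a time gave 7 to 14 member peaks called higher, 0 to 2 called lower, 15 to 36 other pathway peaks called higher and 16 to 25 called lower. Of the 15 main member calls, 7 to 12 were kept in these fits. Scaling by library size only, DESeq2 size factors, a minimum of 10 counts in every library, no filter and GC-content offsets gave 12 to 14 member peaks called higher and 2 lower. None of the 15 called member peaks or the 12 named peaks of other pathway genes changed sign under any of the 14 alternatives run for them.

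Whether the replicate numbers pair the libraries was not settled. The correlations of same-numbered libraries' deviations from their group means were -0.088, 0.19 and 0.13. Empty vector libraries 2 and 3 correlated best with their own number, and empty vector library 1 with HMGB2OE library 3 (0.16). With 3 libraries per group, these correlations cannot exclude a pairing. A replicate block gave 13 member peaks called higher and 2 lower, with all 15 shared with the fit without the block, and 36 and 26 other pathway peaks. With the block and GC-content offsets, 13 and 2 member peaks were called and 14 of the 15 were shared. Weak peaks were measured less precisely: at the TCF7L2 peak with a mean of 41.8 normalized counts, the SE was 0.28 on the log2 scale, against 0.07 at its promoter with 1441 counts in empty vector cells.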
